A study of Mus musculus with 16 samples.

Results

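Oligodendrocytes are the glial cells that wrap axons of the brain and spinal cord in myelin, and 30 genes of this lineage were followed in the brains of aged mice given adropin or saline. The genes were taken by their symbols from the table of gene counts, which held all 30 among 40481 genes. All 30 passed the filter on low counts, as did 14949 genes in all. They comprised 25 genes of mature, myelinating oligodendrocytes and 5 genes of precursors and newly formed oligodendrocytes (Pdgfra, Cspg4, Gpr17, Bcas1 and Enpp6).

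Male C57BL mice (C57BL/6J in the study's methods) were bought at 18 months of age. For about 4 weeks they were injected intraperitoneally each morning with synthetic adropin(34-76) at 90 nmol/kg/d, or with the saline and albumin diluent alone. The study describes adropin(34-76) as the putative secreted domain of adropin. Behavioral tests began partway through the injections, and a 6 h fast preceded tissue collection. Poly-A RNA of frozen brain was sequenced from 8 mice of each group, drawn from 15 a group, and the brain region is not given in the labels. Each mouse is called by its label, a pair of numbers such as 8_3. Library totals ran from 35185051 to 70314050 counts in adropin mice (median 41190462) and from 35026503 to 47245785 in saline mice (median 41497897.5). At this depth a single mouse contributed between 66 counts (Enpp6) and 219472 counts (Mbp) to a member gene.

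Oligodendrocyte precursors carry the PDGF receptor Pdgfra and the proteoglycan Cspg4. As they commit to myelination they pass through a stage marked by Gpr17, Bcas1 and Enpp6, and the factors Sox10, Olig1, Olig2 and Myrf then drive the genes of compact myelin. In the adult and aged brain most cells of the lineage are mature, while a small pool of precursors persists. In RNA from whole tissue, fewer cells of a type and less RNA per cell cannot be told apart.

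Promoter sequences are shown for 6 genes that rose and fell together with Mbp between mice, 4 with and 2 without the motifs marked here, and for 2 genes that did not follow Mbp. One of the 6 is Qdpr, the gene with the smallest p of the 30. They are RefSeq windows of 300 bases on mouse build GRCm38.p6, from 250 bases before the start site to 50 after it, written 5′ to 3′ on the gene's strand. Windows were matched for 21 of the 30 genes. Capitals mark 3 short motifs found on either strand, namely the SOX core ACAAAG or ACAATG, the MYRF core CTGGCAC or CTGGTAC, and the E-box CAGCTG. Mobp (chr9:120149492-120149791, plus strand), Mag (chr7:30914814-30915113, minus strand), Mog (chr17:37023349-37023648, minus strand), Opalin (chr19:41077064-41077363, minus strand) and Cldn11 (chr3:31149670-31149969, plus strand) encode myelin membrane proteins. Pdgfra (chr5:75152001-75152300, plus strand) and Cspg4 (chr9:56864854-56865153, plus strand) mark precursors, and Qdpr (chr5:45450180-45450479, minus strand) encodes an enzyme.
Mobp: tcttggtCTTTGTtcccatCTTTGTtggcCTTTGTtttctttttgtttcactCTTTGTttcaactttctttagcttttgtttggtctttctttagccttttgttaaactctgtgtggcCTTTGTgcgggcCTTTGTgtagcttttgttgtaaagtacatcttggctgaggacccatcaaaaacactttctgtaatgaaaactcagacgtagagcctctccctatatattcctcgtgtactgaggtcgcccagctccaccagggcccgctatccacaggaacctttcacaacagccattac
Mag: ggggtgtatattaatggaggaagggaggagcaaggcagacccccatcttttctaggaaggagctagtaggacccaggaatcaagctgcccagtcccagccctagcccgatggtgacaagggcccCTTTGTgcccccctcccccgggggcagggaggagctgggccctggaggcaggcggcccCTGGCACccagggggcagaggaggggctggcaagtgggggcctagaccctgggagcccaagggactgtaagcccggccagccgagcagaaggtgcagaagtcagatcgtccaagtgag
Mog: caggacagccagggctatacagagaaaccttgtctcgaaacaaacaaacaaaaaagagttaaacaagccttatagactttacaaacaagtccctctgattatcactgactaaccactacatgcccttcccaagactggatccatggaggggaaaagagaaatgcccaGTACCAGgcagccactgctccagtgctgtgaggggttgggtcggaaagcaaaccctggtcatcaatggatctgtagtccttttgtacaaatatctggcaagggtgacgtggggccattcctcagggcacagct
Opalin: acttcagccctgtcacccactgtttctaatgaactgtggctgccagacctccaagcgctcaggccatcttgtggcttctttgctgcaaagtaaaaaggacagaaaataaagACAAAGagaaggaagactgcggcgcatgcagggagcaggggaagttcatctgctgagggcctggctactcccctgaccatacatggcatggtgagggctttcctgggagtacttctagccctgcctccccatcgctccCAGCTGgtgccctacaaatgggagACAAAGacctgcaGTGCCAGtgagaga
Cldn11: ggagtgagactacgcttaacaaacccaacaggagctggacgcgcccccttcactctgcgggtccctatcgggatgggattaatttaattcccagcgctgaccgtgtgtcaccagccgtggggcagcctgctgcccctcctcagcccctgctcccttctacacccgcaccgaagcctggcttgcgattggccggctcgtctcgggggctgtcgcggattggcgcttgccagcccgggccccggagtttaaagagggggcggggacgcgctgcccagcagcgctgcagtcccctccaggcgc
Pdgfra: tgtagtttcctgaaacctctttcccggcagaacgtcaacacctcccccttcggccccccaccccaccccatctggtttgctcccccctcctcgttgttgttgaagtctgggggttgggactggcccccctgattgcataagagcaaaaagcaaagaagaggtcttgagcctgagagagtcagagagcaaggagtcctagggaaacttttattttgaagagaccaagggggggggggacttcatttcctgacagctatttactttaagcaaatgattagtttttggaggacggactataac
Cspg4: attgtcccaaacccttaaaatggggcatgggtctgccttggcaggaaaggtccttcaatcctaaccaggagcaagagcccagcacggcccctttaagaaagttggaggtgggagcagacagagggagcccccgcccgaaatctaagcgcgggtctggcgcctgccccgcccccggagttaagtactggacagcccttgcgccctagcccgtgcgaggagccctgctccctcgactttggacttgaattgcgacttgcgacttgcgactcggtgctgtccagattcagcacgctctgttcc
Qdpr: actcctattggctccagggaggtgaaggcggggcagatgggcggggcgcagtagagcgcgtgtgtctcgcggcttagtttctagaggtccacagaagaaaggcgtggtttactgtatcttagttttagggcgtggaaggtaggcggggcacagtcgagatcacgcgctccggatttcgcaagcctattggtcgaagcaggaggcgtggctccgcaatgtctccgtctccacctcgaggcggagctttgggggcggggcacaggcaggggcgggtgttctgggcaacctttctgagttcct

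The Mobp window held 6 copies of the SOX core, between 243 and 120 bases before the start site. The Mag window shown held 1 SOX core and 1 MYRF core, while another of the 3 listed Mag windows held none of the motifs, Mog held 1 MYRF core, and Opalin held all 3 motifs. The windows of Cldn11, Qdpr, Pdgfra and Cspg4 held none of these letters. In the first listed window of each gene, of the 11 genes with a window and a Pearson's r with Mbp above 0.9, 7 held at least 1 of the motifs and 4 (Cldn11, Gjc3, Mal and Qdpr) held none. Of the 10 other genes with a window and a lower r, 3 held at least 1 in the first window, and Nfasc and Tspan2 held 1 each in another of their windows. Motifs were thus present and absent on both sides of that line, and the shares were not tested. Over the first listed window of each gene, the SOX core was present in 28.8% of 27025 promoters and in 8 of the 21 members. The MYRF core was present in 7.07% of all promoters and in 5 of the 21 members (Cnp, Hapln2, Mag, Mog and Opalin). The E-box was present in 16.1% of all promoters and in 3 of the 21. These matches are descriptions of sequence, and binding was not measured.

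Every member was detected in every mouse, and their levels per kilobase of exon spanned 688-fold. Values per length are CPM (each gene's counts scaled to a library of fixed size, after TMM) divided by the length of the gene's merged exons. Mbp, which encodes the cytoplasmic protein that compacts myelin, stood highest at 352 CPM per kb in saline mice, followed by Mobp at 123, Qdpr at 84.6 and Cnp at 80.7. The precursor genes lay at the other end, with Gpr17 at 4.81, Pdgfra at 3.13, Cspg4 at 2.20 and Enpp6 at 0.512 CPM per kb. The mature gene Aspa lay among them, at 2.27 CPM per kb. Bcas1 stood apart from the other precursor genes at 42.1 CPM per kb, ninth from the top. The Schwann cell markers Pmp2 and Foxd3 were at or near 0, at most 0.0365 CPM and 0.0552 CPM in any mouse. Others on the Schwann cell list were present in every mouse, with Drp2 from 54.8 to 89.6 CPM, Cdh19 from 4.25 to 7.44 CPM, Prx from 0.862 to 2.21 CPM and Ncmap from 0.607 to 1.68 CPM, so the list as a whole was not absent. Exons of 10 members overlapped those of another annotated gene, by 63.5% of the exon length in Trf, 18.6% in Qdpr and 12.6% in Bcas1. Only unambiguous reads were counted and the strand setting is not given, so part of the reads of these genes may be missing from their counts.

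No member differed between adropin and saline mice at an unadjusted p below 0.05, and the mature genes had small differences of one sign. Of the 25 mature genes, 24 had a lower mean in adropin mice on the fitted log2 scale, and the exception was Nfasc. Their median log2 fold change was -0.14, where all 14949 genes had a median of -0.0019 and 50.8% of them were lower. Of the 5 precursor and newly formed genes, 3 were lower, and their median was -0.0015. The mature median thus lay 0.13 below the precursor median on the log2 scale. Across the alternative fits given at the end, this gap ran from -0.27 to 0.050. Between mice of a group, the mean mature level minus the mean precursor level had an SD of 0.26. That SD describes single mice, and the uncertainty of the gap itself was not estimated. The 24 genes are not 24 independent observations, because they rose and fell together from mouse to mouse, as shown further down.

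By edgeR's quasi-likelihood test 0 of the 30 members were lower at an unadjusted p below 0.05, where 2.13% of all genes were, and 0 were higher, where 1.86% of all genes were. None passed that p together with a fold change above 1.5, where 0.421% of all genes did. limma-voom and DESeq2 gave 0 in both directions as well. No gene of the 14949 passed an adjusted p of 0.05, and the smallest adjusted p was 0.387. The 95% interval of the difference lay within a fold change of 1.5 either way (0.58 on the log2 scale) for 23 of the 30 members. For the other 7 (Mbp, Mog, Mag, Mobp, Trf, Ppp1r14a and Bcas1) the interval reached past a 1.5-fold lower level, which these 8 mice a group could not tell from no difference.

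**Figure D1:**
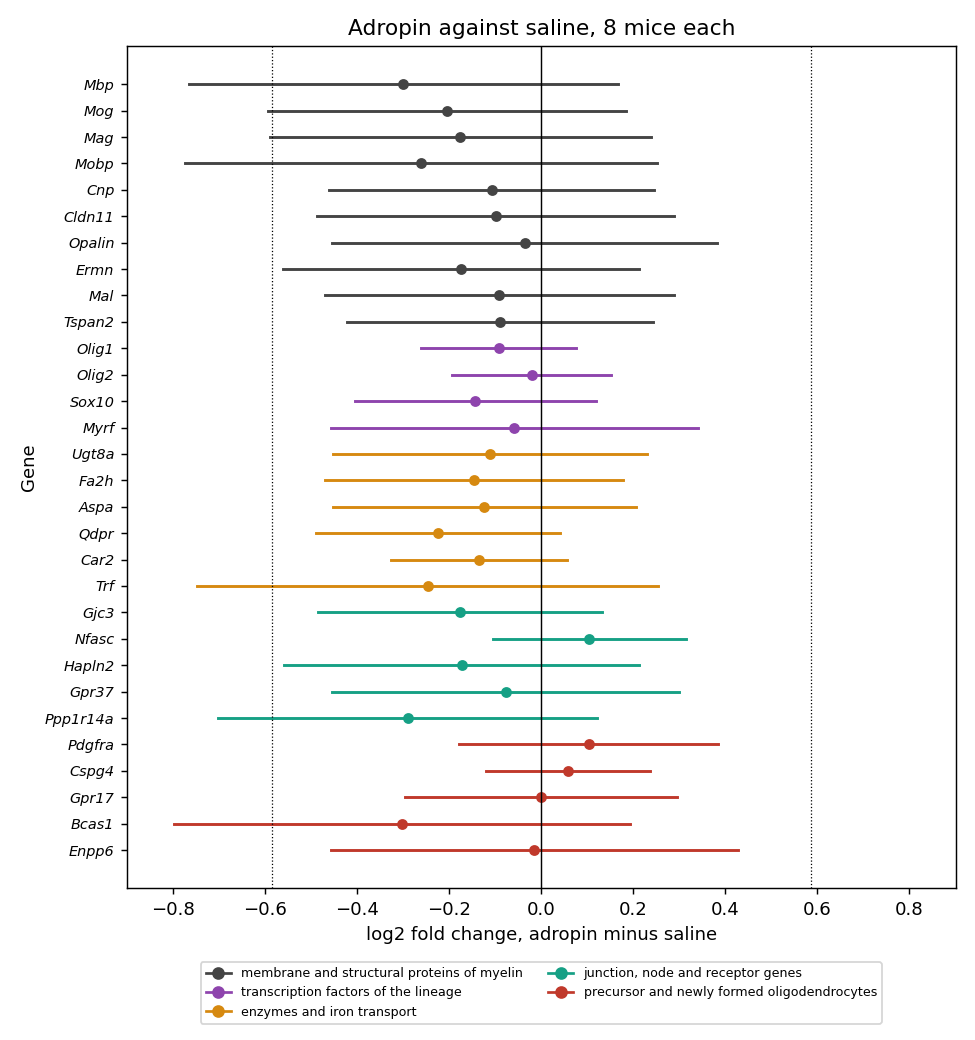
Log2 fold change of each of the 30 genes, adropin minus saline (horizontal axis), by gene and role group (vertical axis), with points for the edgeR estimate, bars for its 95% interval and dotted lines at a 1.5-fold change. Every bar crosses 0, and 27 of the 30 points lie to the left of it.

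Among membrane and structural proteins of myelin, all 10 genes were lower on average and none passed the test. Mbp ran from 1424 CPM through a median of 2224 to 4391 CPM in adropin mice, and from 1456 through 2896 to 4756 CPM in saline mice. The ranges overlapped almost fully, with 7 of 8 adropin mice below the saline median and the remaining adropin mouse, 7_4, above all saline mice but one. The means were 2423 ± 907 CPM (SD, n = 8) and 2983 ± 985 CPM (SD, n = 8), a log2 fold change of -0.30 ± 0.22 (SE, edgeR p = 0.193, adjusted p = 0.874, exact permutation p = 0.247).

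Mobp, a small basic protein of compact myelin, ran from 369 through 618 to 1437 CPM in adropin mice and from 391 through 839 to 1307 CPM in saline mice. Here adropin mouse 7_4 was the highest of all 16, and the lowest mouse was also of the adropin group. The others of this group had log2 fold changes from -0.20 for Mog, on the outermost lamella, to -0.036 for Opalin, a transmembrane protein of oligodendrocytes, and Mobp was at -0.26. Mag, the adhesion molecule facing the axon, was at -0.18. Ermn, a cytoskeletal protein, was at -0.17, and Cnp, the cyclic nucleotide phosphodiesterase of uncompacted myelin, was at -0.11. Cldn11, which forms the tight junctions of myelin, was at -0.099, Mal, a raft proteolipid, was at -0.091, and the tetraspanin Tspan2 was at -0.090.

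The 4 transcription factors of the lineage had log2 fold changes from -0.14 to -0.021. Olig1, a basic helix-loop-helix factor of the whole lineage, ran from 106 through 121 to 148 CPM in adropin mice and from 118 through 130 to 164 CPM in saline mice. The groups overlapped over most of their range, and the highest value belonged to saline mouse 2_3. Its log2 fold change was -0.092 ± 0.080 (SE, edgeR p = 0.265, exact permutation p = 0.269). Sox10, the HMG-box factor required for terminal differentiation, was at -0.14, Myrf, the factor that sustains myelin gene expression, was at -0.058, and Olig2 was at -0.021. The 95% intervals of all 4 lay within a 1.5-fold change, and for Olig2 the interval ran from -0.19 to 0.15.

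Enzymes and iron transport included the gene with the smallest p among the 30. Qdpr, which regenerates tetrahydrobiopterin and is rich in oligodendrocytes but made by other cells too, ran from 101 through 125 to 170 CPM in adropin mice and from 104 through 152 to 202 CPM in saline mice. Again 7 of 8 adropin mice lay below the saline median, and the groups overlapped over most of their range. The means were 130 ± 20.8 CPM and 151 ± 33.2 CPM (SD, n = 8 each), which gave a log2 fold change of -0.22 ± 0.13 (SE, edgeR p = 0.0924, adjusted p = 0.874, exact permutation p = 0.156).

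The other 5 genes of the group were also lower on average without passing the test. Trf, the iron carrier transferrin, was at -0.25 and Fa2h, which hydroxylates the fatty acids of myelin lipids, was at -0.15. Car2, a carbonic anhydrase, was at -0.14 (edgeR p = 0.156, exact permutation p = 0.194), and Aspa, which cleaves N-acetylaspartate, was at -0.12. Ugt8a, the enzyme that makes galactosylceramide, was at -0.11.

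Among the junction, node and receptor genes 4 of 5 were lower and 1 was higher on average. Ppp1r14a, an inhibitor of myosin phosphatase, ran from 10.2 through 13.2 to 18.1 CPM in adropin mice and from 8.11 through 15.0 to 24.2 CPM in saline mice. The saline mice were the more spread out, so that they held both the lowest and the highest value. Its log2 fold change was -0.29 ± 0.20 (SE, edgeR p = 0.155, exact permutation p = 0.349). The connexin gene Gjc3 was at -0.18, Hapln2, a link protein of the nodal matrix, was at -0.17, and the orphan receptor Gpr37 was at -0.078. Nfasc, whose glial form anchors the paranode and whose neuronal form lies at the node, was at 0.10 (edgeR p = 0.310, exact permutation p = 0.350). Neurons express Nfasc as well, and the counts do not separate the forms.

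**Figure D2:**
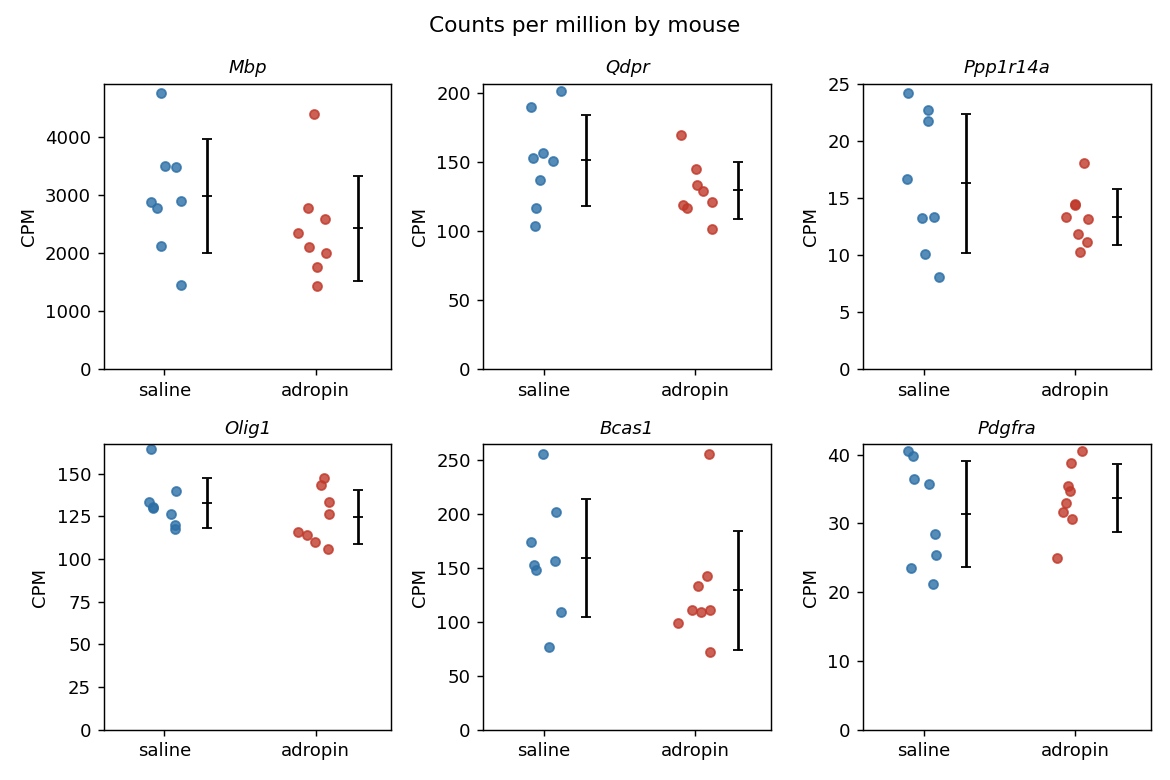
CPM of 6 genes (vertical axes, from 0) in each of 8 saline and 8 adropin mice (points), with the mean and SD of each group beside them. The groups overlap in every panel, and in Mbp and Bcas1 one adropin mouse, 7_4, lies far above the other 7.

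The precursor and newly formed genes did not share 1 direction. Bcas1, a marker of newly formed and actively myelinating cells, ran from 72.0 through 111 to 255 CPM in adropin mice and from 76.7 through 154 to 255 CPM in saline mice. Mouse 7_4 matched the highest saline mouse, while the other 7 adropin mice lay below the saline median. The means were 129 ± 55.2 CPM and 159 ± 54.4 CPM (SD, n = 8 each), which gave a log2 fold change of -0.30 ± 0.24 (SE, edgeR p = 0.216, exact permutation p = 0.251).

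Pdgfra, the receptor through which PDGF keeps precursors dividing, ran from 24.9 through 33.8 to 40.5 CPM in adropin mice and from 21.2 through 32.0 to 40.5 CPM in saline mice. The adropin range lay within the saline range but for its top, where both groups ended at the same level. Its log2 fold change was 0.10 ± 0.13 (SE, edgeR p = 0.454, exact permutation p = 0.402). Cspg4 ran from 22.0 to 31.0 CPM in adropin mice and up to 30.2 CPM in saline mice, and Gpr17 from 18.3 to 30.5 CPM and from 14.2 to 31.8 CPM. Both genes reached lower in the saline group, in mouse 8_3. Cspg4 was at 0.058 ± 0.085 and Gpr17, a receptor of committed precursors, was at -0.0015 ± 0.14. Enpp6, a choline phosphodiesterase of newly formed oligodendrocytes, was at -0.015 ± 0.21 on 66 to 242 counts a mouse. For Pdgfra, Cspg4 and Gpr17 the 95% intervals lay within a 1.5-fold change.

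Single mice decided how many members passed the test. Without adropin mouse 7_4, 4 members were lower at an unadjusted p below 0.05, namely Bcas1 (log2 fold change -0.52), Mobp (-0.49), Mbp (-0.48) and Qdpr (-0.29), by the same edgeR test, in which 2.24% of all genes were lower at that p. Without saline mouse 6_1, Qdpr (-0.29) and Ppp1r14a (-0.39) passed, where 2.71% of all genes did, and without saline mouse 7_1 only Qdpr (-0.27) did, where 2.96% of all genes did. The mature median moved from -0.14 to -0.22 without 7_4 and to -0.075 without saline mouse 2_3, and 21 to 24 mature genes were lower whichever single mouse was left out. When the first label number was held fixed as a block, 5 of the 25 mature genes were lower, so the shared sign was not kept under every fit.

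Most other genes of the lineage also differed little, though some differed more than any member did, and the lists were not compared by a test. Of 35 further mature genes 33 were lower on average, with a median log2 fold change of -0.13, and 1 was lower at an unadjusted p below 0.05, where 2.13% of all genes were. Of 19 further precursor and differentiating genes tested, 10 were lower, the median was -0.0012 and 0 passed. The counts changed with the mice in the fit, and of these 54 genes 5 were lower at that p without mouse 7_4 (where 2.24% of all genes were) and 5 without mouse 6_1 (2.71%). The gene that passed with all mice was Sox8, a SOX factor that acts beside Sox10 in oligodendrocytes. Sox8 ran from 30.4 through 41.6 to 48.1 CPM in adropin mice and from 40.0 through 51.9 to 57.7 CPM in saline mice. All 8 adropin mice lay below the saline median, though the ranges overlapped. Its log2 fold change was -0.32 ± 0.083 (SE, edgeR p = 0.00108, adjusted p = 0.874, exact permutation p = 0.00233), so it did not pass the adjustment over all genes. With the first label number held fixed as a block, Sox8 did not pass the unadjusted p either. In that fit 0 of these 54 genes were lower at that p, where 1.3% of all genes were. The ends of these lists were Klk6, a protease of mature oligodendrocytes, at -0.37 (edgeR p = 0.282, exact permutation p = 0.288), and Tnr, the matrix protein tenascin-R, at 0.48 (edgeR p = 0.0857, exact permutation p = 0.0998).

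Mouse-to-mouse variation within each group was wide. The coefficient of variation of the 25 mature genes had a median of 26.8% in adropin and 26.7% in saline mice. Over all 16 mice the highest carried 3.89 times the CPM of the lowest for Mobp, 3.34 times for Mbp and 3.86 times for Trf. Within a group the ratio for Mbp was 3.08 in adropin and 3.27 in saline mice. Olig2 was the steadiest of the 30 over all mice, at 1.39 times, followed by Cspg4 and Olig1, both at 1.55 times.

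The same mice were high or low for most mature genes. Saline mouse 2_3 was among the highest 3 of 16 for 22 of the 25 mature genes, adropin mouse 7_4 for 20 and saline mouse 8_3 for 16. At the other end, saline mouse 6_1 was among the lowest 3 for 22 genes, adropin mouse 3_3 for 17 and adropin mouse 1_3, the deepest library, for 14. Averaged over the mature genes, the deviation from the gene means ran from -0.60 (6_1) to 0.44 (2_3) on the log2 scale in saline mice and from -0.41 (1_3) to 0.50 (7_4) in adropin mice. High and low mice thus occurred in both groups.

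**Figure D3:**
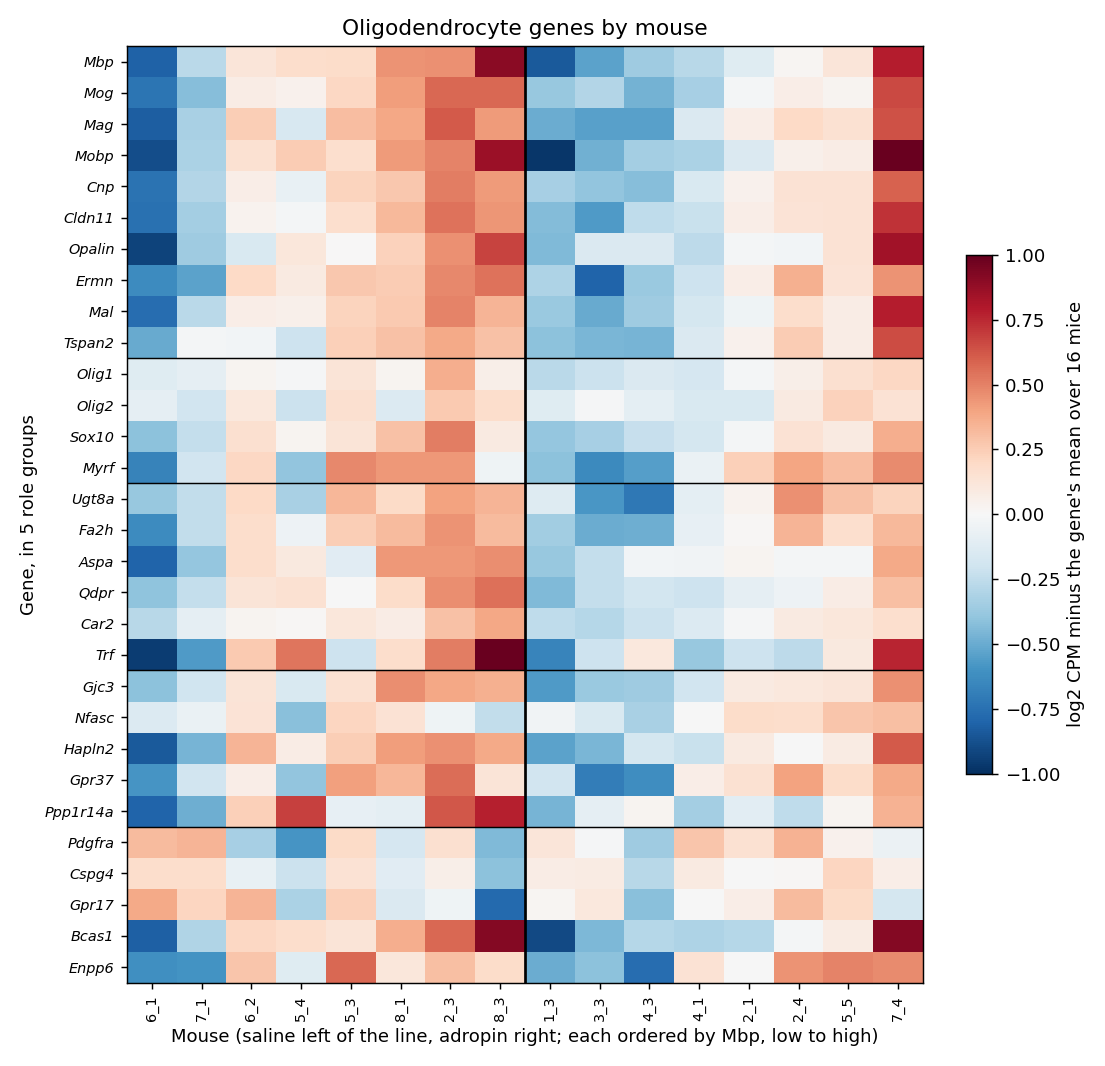
Log2 CPM of each gene (rows, in 5 role groups) in each mouse (columns, 8 saline left of the line and 8 adropin right, each ordered by Mbp) minus the gene's mean over 16 mice, with red above and blue below the mean and colors saturating at 1. Columns are mostly of 1 color through the 25 mature genes and Bcas1, and break at Pdgfra, Cspg4 and Gpr17.

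The relation to Mbp between mice split the 5 precursor and newly formed genes. Correlations were computed over the 16 mice on log2 CPM after the group means were subtracted, with p from 100000 permutations within groups, and adjusted over the 32 relations computed. All genes of a mouse were read from the same piece of tissue and the same library, and only member genes were set against Mbp. The share of all genes that reach a given r with Mbp is thus not known. Against Mbp, 12 of the other 24 mature genes had Pearson's r above 0.9 and 11 more had r above 0.5. Nfasc was the exception, at r = 0.36 (p = 0.192) and Spearman's rho = 0.52 (p = 0.0490, adjusted p = 0.0541). Its r was 0.72 (unadjusted exact permutation p = 0.0398) within the adropin mice and 0.00048 (p = 0.999) within the saline mice. Without saline mouse 8_3 the r of Nfasc over both groups was 0.53.

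Mobp followed Mbp most closely, with r = 0.99 and rho = 0.99 (permutation p = 1e-05 for each, the smallest the permutations can give; adjusted p = 2.46e-05). The transcription factors were looser, with r = 0.86 for Sox10, 0.77 for Olig1, 0.72 for Myrf and 0.57 for Olig2 (permutation p = 0.0281 for Olig2, adjusted p = 0.0321; rho = 0.54, p = 0.0423). Without the 2 mice farthest from the Mbp median, 6_1 and 7_4, the median r of the 24 mature genes was 0.83, against 0.89 with them. Within the 8 adropin mice the median r was 0.93 and within the 8 saline mice it was 0.91.

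**Figure D4:**
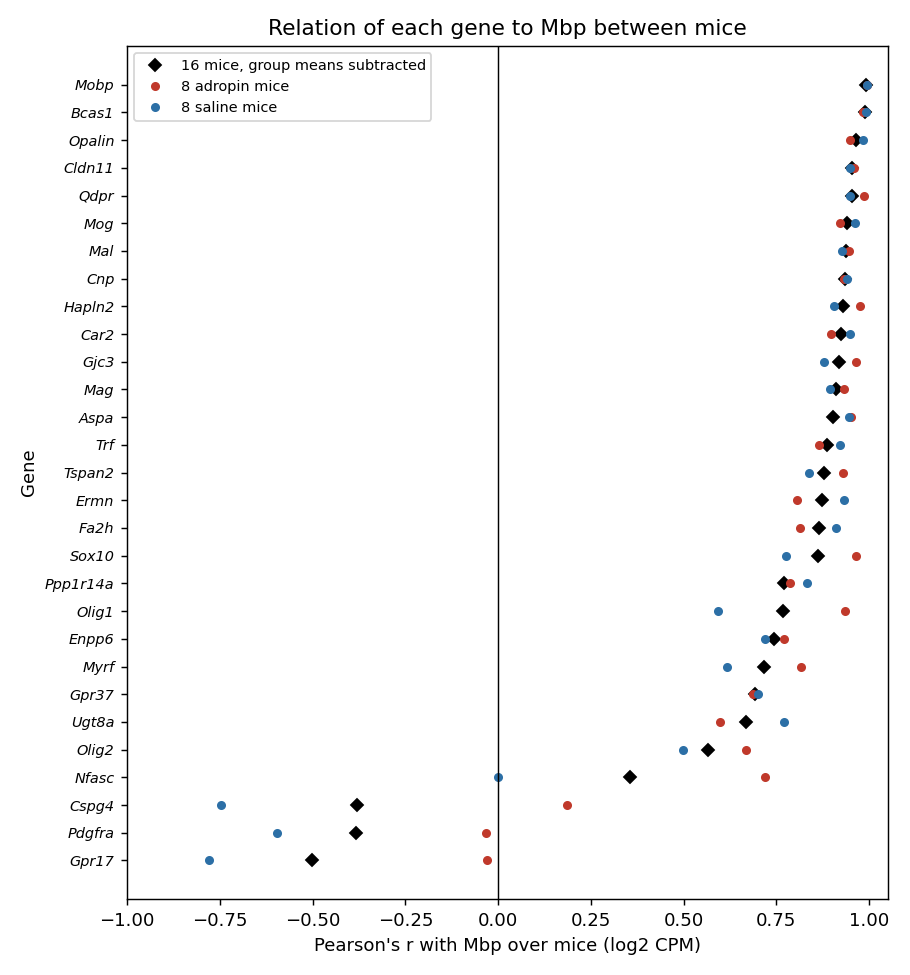
Pearson's r of 29 genes (rows) with Mbp over mice on log2 CPM (horizontal axis), for all 16 mice with group means subtracted (diamonds) and within the 8 adropin or 8 saline mice (circles). Bcas1 sits second from the top at 0.99, and Pdgfra, Cspg4 and Gpr17 sit at the bottom, between -0.50 and -0.38.

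Bcas1 and Enpp6 moved with the myelin genes. Bcas1 had r = 0.99 and rho = 0.97 with Mbp (permutation p = 1e-05 for each, adjusted p = 2.46e-05), and r = 0.98 without the 2 farthest mice. Enpp6 had r = 0.74 (permutation p = 0.00129, adjusted p = 0.00179) and rho = 0.76 (p = 0.00134, adjusted p = 0.00195), and r = 0.67 without those mice. Within groups the r of Bcas1 was 0.98 in adropin and 0.99 in saline mice, and that of Enpp6 was 0.77 and 0.72.

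Pdgfra, Cspg4 and Gpr17 did not rise with Mbp over the 16 mice. Their r was -0.38 for Pdgfra (permutation p = 0.167, adjusted p = 0.173), -0.38 for Cspg4 (p = 0.168, adjusted p = 0.173) and -0.50 for Gpr17 (p = 0.0616, adjusted p = 0.0679), and their rho was -0.28 (p = 0.323), -0.32 (p = 0.257) and -0.42 (p = 0.128). Within the groups r was -0.032, 0.19 and -0.030 in adropin mice and -0.60 (unadjusted exact permutation p = 0.119), -0.75 (p = 0.0313) and -0.78 (p = 0.0238) in saline mice, and the difference between the groups was not tested. Without saline mouse 8_3, which had the lowest Cspg4 and Gpr17, they were -0.27, -0.17 and -0.32.

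The 3 genes moved with one another instead. Pdgfra and Cspg4 had r = 0.81 (permutation p = 0.00097, adjusted p = 0.00141) and rho = 0.81 (p = 0.00282). Cspg4 and Gpr17 had r = 0.83 (permutation p = 0.00073, adjusted p = 0.00117) and rho = 0.63 (p = 0.0244), with r = 0.58 without the 2 mice farthest from the Cspg4 median. Pdgfra and Gpr17 had r = 0.70 (permutation p = 0.00652, adjusted p = 0.00773) and rho = 0.68 (p = 0.0136). Without the 2 mice farthest from the Pdgfra median, 5_4 and 4_3, these became 0.74 for Cspg4 and 0.61 for Gpr17.

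**Figure D5:**
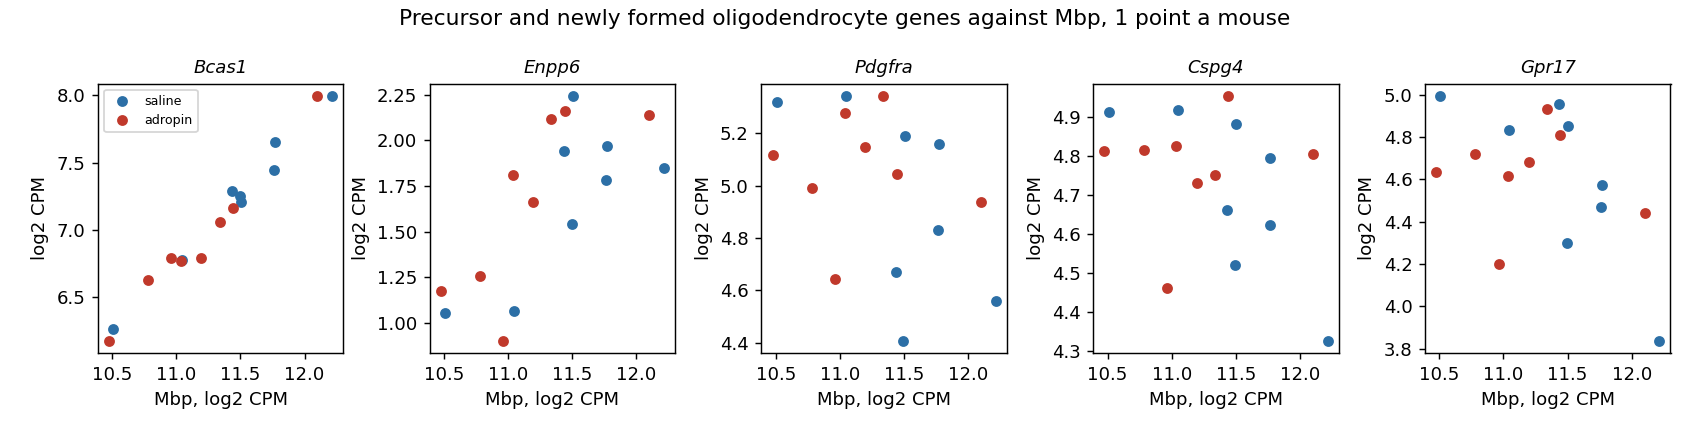
Log2 CPM of 5 precursor and newly formed oligodendrocyte genes (vertical axes) against log2 CPM of Mbp (horizontal axes), 1 point a mouse, saline in blue and adropin in red. Bcas1 falls on a line with Mbp (r = 0.99), whereas Pdgfra, Cspg4 and Gpr17 show no rise with it.

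Markers of other tissue differed between mice, and some differed between the groups. Saline mouse 8_3, the mouse with the highest Mbp, had a summed cerebellar marker level of 511 CPM, where the other 15 mice lay at or below 53.6 CPM, and a choroid plexus level of 2479 CPM. Saline mouse 5_4 came next in choroid plexus markers, at 331 CPM, where the other 14 mice lay at or below 76.7 CPM. Summed choroid plexus markers ran from 11.9 to 76.7 CPM in adropin mice and from 14.9 to 2479 CPM in saline mice. By edgeR 5 of the 5 tested choroid plexus markers were lower in adropin mice at an unadjusted p below 0.05, where 2.13% of all genes were. The exact permutation p was 0.00684 for Prlr and 0.00808 for Kl, but 0.149 for Sostdc1, 0.190 for Clic6 and 0.536 for Ttr, whose median was higher in adropin than in saline mice. Of the 3 tested cerebellar markers 1, Car8, was lower at an edgeR p of 0.0338 (exact permutation p = 0.960). En2, a cerebellar marker below the filter on low counts, ran from 0.326 to 0.804 CPM in adropin mice and from 0.781 to 10.9 CPM in saline mice (exact permutation p = 0.000311), with all 8 adropin mice below the saline median. The other cerebellar markers below that filter had an exact permutation p of 0.0525 (Gabra6), 0.156 (Cbln3), 0.499 (Barhl1) and 0.819 (Pcp2). Medians of Car8, Zic1 and Pcp2 were higher in adropin mice. Those of Cbln1, Cbln3, Gabra6 and Barhl1 were lower, so the cerebellar list was mixed in direction. Mouse 8_3 held the highest value of each choroid plexus and cerebellar gene named here. Without mouse 8_3 alone, 22 of the 25 mature genes were lower, their median was -0.089 and 0 members passed the test. When mice 8_3, 6_1 and 3_3 were left out, 24 of the 25 mature genes were lower, their median was -0.11 and 0 members passed the test. Mice 6_1 and 3_3 had cerebellar sums of 49.9 and 48.1 CPM and choroid plexus sums of 19.5 and 14.1 CPM. They were low for most mature genes, and the high mouse 7_4 was kept, so that fit is not a check on tissue markers. Of the 8 cortex and hippocampus markers 1 was higher at an unadjusted p below 0.05, as was 1 of 8 microglial markers (Cx3cr1). Of all genes 1.86% were higher at that p. None of 8 astrocyte, 8 neuronal or 8 endothelial markers passed. Adropin mouse 7_4 had the highest summed astrocyte markers (5014 CPM, where the others ran from 3079 to 4864) and its cerebellar sum was 36.3 CPM. It also had the highest share of counts in Gm42418, a transcript that overlaps ribosomal RNA sequence, at 4.98%, where the median was 2.53% in adropin and 1.54% in saline mice. The part that tissue composition or this share plays in these levels was not tested.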

How the data were processed

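Brain RNA of 16 mice (8 adropin, 8 saline) was analysed from the gene counts deposited by the authors, whole-number tallies of reads that aligned once and to a single gene of Ensembl release 76 (STAR, featureCounts). No strand setting is given in the sources used here. A deposited CPM table was not used. Of 40757 rows, 276 repeats were dropped, and 355 ribosomal RNA genes were left out. Genes above 1 CPM in at least 7 mice were tested (14949) by edgeR 4.0.16 in R 4.3.3 (TMM, quasi-likelihood test, Benjamini-Hochberg adjustment over all genes). limma 3.58.1 (voom) and DESeq2 1.42.0 were alternatives, beside other scalings, filters, label-number blocks and left-out mice. The exact two-sided permutation test ran over 12870 divisions of the mice, on log2 CPM with a prior count of 2. The 95% intervals come from the edgeR fit. Exon lengths and positions come from GENCODE M21. The scripts were tested on simulated data. Replicates are separate mice by their labels.

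In each role group the gene with the smallest edgeR p was described in full, and of further lineage genes those past an unadjusted p of 0.05 and both ends of the fold changes. The rule also named 1 gene by its symbol, which is not reported here. The members, lists and rules were chosen with earlier results of these data known.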

Additional observations from a re-analysis of the deposited data

Results flagged for a closer look

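In each group of 8 mice, the highest or lowest CPM was compared with its nearest neighbor by Dixon's gap. Of 60 groups examined, 11 had a mouse apart from the rest, where chance alone gives about 3 (1 in 20), and the genes are not independent. In 10 of them the mouse was adropin mouse 7_4, on the high side. Its Mbp was 4391 CPM (nearest adropin mouse 2782), Mobp 1437 CPM (nearest 761), Bcas1 255 CPM (nearest 143) and Mal 233 CPM (nearest 153). Its Cldn11 was 178 CPM (nearest 119), Mog 60.5 CPM (nearest 40.2), Hapln2 49.1 CPM (nearest 34.1) and Opalin 38.7 CPM (nearest 23.8). Its Trf was 27.4 CPM (nearest 17.4) and its Aspa 16.5 CPM (nearest 12.9). The remaining one was Olig1 in saline mouse 2_3, at 164 CPM (nearest 140).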

How the results depend on the processing

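The counts of members past the test stayed at 0 under limma-voom, DESeq2, both other scalings, both other filters and without mice 8_3, 6_1 and 3_3. Those 7 alternatives also gave 24 of 25 mature genes as lower, with medians from -0.16 to -0.11. Of the counts, only that of the other lineage genes changed, from 1 to 2 lower at an unadjusted p below 0.05 without those 3 mice, and Gpr17 turned to 0.034 under limma-voom. Leaving out 1 mouse at a time gave 0 to 4 members lower and 0 higher, 1 to 5 other lineage genes lower and 0 to 2 higher (where 1.28% to 3.51% of all genes were lower and 1.08% to 6.16% higher), a mature median from -0.22 to -0.075, a precursor median from -0.042 to 0.088 and a gap between them from -0.26 to -0.091. It turned the sign of Opalin (-0.20 to 0.075), Olig2 (-0.051 to 0.014), Myrf (-0.14 to 0.024), Gpr37 (-0.15 to 0.0077), Gpr17 (-0.088 to 0.059) and Enpp6 (-0.094 to 0.088).

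Mice of the 2 groups that shared a label number did not deviate together (first number, 5 pairs, r from -0.27 to 0.22; second number, 17 pairs, r from -0.56 to 0.30), so the numbers are not taken to pair the mice. With the first number as a replicate block, members past the test stayed at 0 and other lineage genes lower went from 1 to 0, while the mature median became 0.090, the precursor median 0.040 and the gap 0.050. The log2 fold change then was 0.063 for Mbp, 0.036 for Mog, 0.090 for Mag, 0.078 for Mobp, 0.094 for Cnp, 0.13 for Cldn11, 0.16 for Opalin, 0.14 for Ermn, 0.090 for Mal, 0.11 for Tspan2, 0.072 for Olig2, 0.21 for Myrf, 0.16 for Ugt8a, 0.072 for Fa2h, 0.029 for Aspa, 0.0094 for Trf, 0.11 for Gjc3, 0.095 for Hapln2, 0.092 for Gpr37, -0.0062 for Pdgfra, 0.057 for Gpr17, 0.0087 for Bcas1 and 0.33 for Enpp6. That fit rests on the 3 first numbers found in both groups. With the second number as a replicate block, 1 member (Qdpr, -0.29) and 4 other lineage genes were lower at an unadjusted p below 0.05. In that fit 1.83% of all genes were lower at that p, and Gpr17 was at 0.055. The mature median was -0.22 and the gap was -0.27. The cause of these moves was not tested.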
